A study of Danio rerio with 17 samples.

Results

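Glutathione peroxidases were followed through the midbrains of zebrafish from 2 populations on 3 selenium diets. The members were 4 of the 15648 genes measured, taken by their identifiers in the deposited table: gpx1a (ENSDARG00000018146), gpx1b (ENSDARG00000006207), gpx3 (ENSDARG00000043342) and GPX4 (ENSDARG00000076836). The rule uses no measured value, but the members were chosen with earlier results of these data known. RNA from single midbrains of 17 sexually mature male fish, 1 year old, was hybridised to single-colour NimbleGen expression arrays, 1 array per fish. The fish belonged to the populations Pargana and Transgenic Mosaic 1, which the labels do not describe further. All fish received selenomethionine in the food for 10 weeks. The deficient food contained 0.46 ppm of selenium, the control food 1.7 ppm and the supplemented food 3.1 ppm. Of the 6 groups so formed, Pargana control had 2 fish and every other group had 3. Expression is given as a log2 value, so a difference of 1 stands for a doubling of signal, and levels of different genes were not compared because each has its own probes.

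Glutathione peroxidases reduce hydrogen peroxide and lipid hydroperoxides with electrons from glutathione, which glutathione reductase then regenerates with NADPH. In the selenium-dependent members the catalytic residue is selenocysteine, which is inserted at a UGA codon and makes synthesis of the enzyme depend on selenium supply. In mammals the transcript of the cytosolic enzyme GPX1 is among the most sensitive to selenium deficiency, whereas GPX4, which protects membrane lipids from peroxidation, is among the best preserved. gpx1a and gpx1b are the zebrafish copies of the gene for the cytosolic enzyme, and gpx3 encodes the secreted, extracellular one. The feature named GPX4 carries a symbol that does not tell the zebrafish copies gpx4a and gpx4b apart.

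Array medians lay between 9.62 and 9.73. The signals of all 7 neuronal and 7 of 8 midbrain marker genes were at or above that of the median gene, which shows that their probes gave signal and not how much of each transcript was present. Markers of neighbouring tissues set 4 fish apart, with a mean marker deviation of more than 1 log2 unit from the mean of all fish. Given with their highest list, these were Pargana control fish 2 (pituitary, 3.20), Pargana supplemented fish 1 (muscle, 1.90) and Pargana supplemented fish 3 (pituitary, 3.07). In Transgenic Mosaic 1 it was deficient fish 2 (eye and pineal, 1.41). Pargana supplemented fish 1 was also above 1 for eye and pineal (1.86) and for meninges and choroid plexus (1.54). Pargana supplemented fish 3 was also above 1 for muscle (1.28). A letter in the label code of Pargana deficient fish 3 does not match its population, and the fish was kept in the group that its remaining labels give.

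The mean signal over all fish was 11.23 for gpx1a, 5.83 for gpx1b, 10.70 for gpx3 and 11.99 for GPX4, which describes each gene's own probes and gives no order of transcript amounts. The gpx1b signal came as near as 1.65 log2 units to the lowest value of an array, in Transgenic Mosaic 1 deficient fish 3. Fish of 1 group differed from each other by a pooled SD of 0.30 for gpx1a, 0.33 for gpx1b and 0.34 for gpx3, against a median of 0.23 over all genes. GPX4 had a pooled SD of 0.21.

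**Figure D1:**
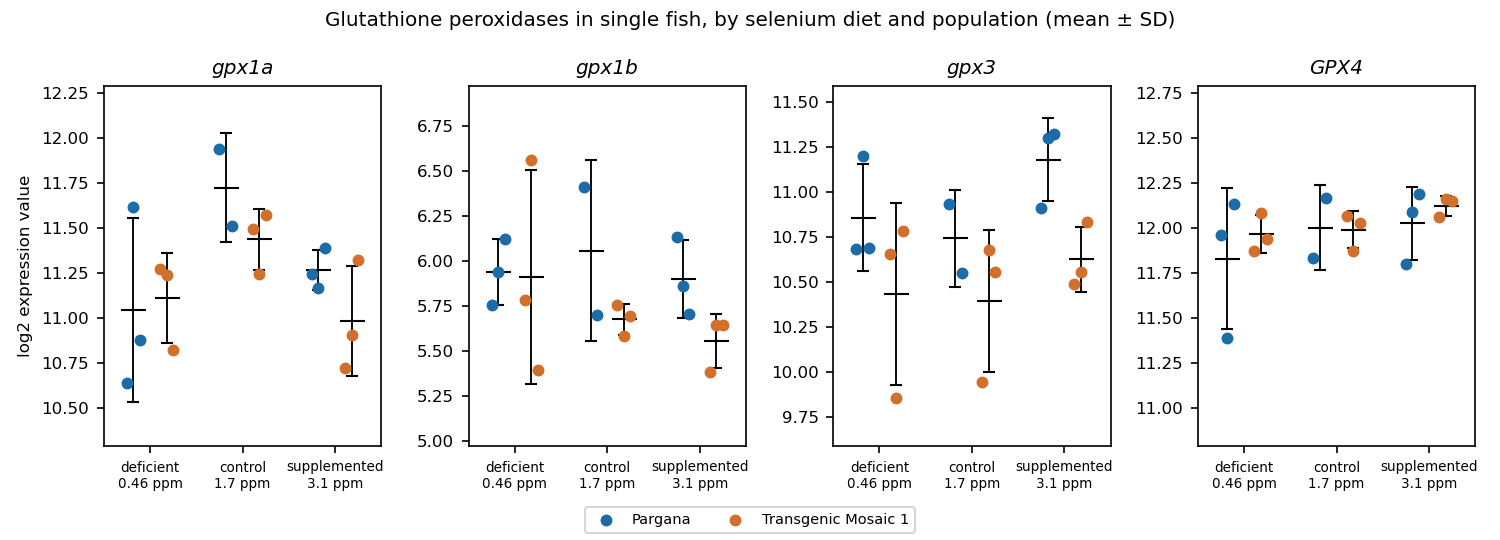
Expression of the 4 glutathione peroxidases in each fish (vertical axes, log2 value, of equal span and each centred on its own gene) by diet (horizontal axes, ppm selenium). Points are fish, blue for Pargana and orange for Transgenic Mosaic 1, and bars show the group mean ± SD (n = 3, or 2 for Pargana control). The gpx1a mean is highest in the control groups, and 7 of the 12 fish on the other diets lie below every control fish. The rest of the 12, Pargana deficient fish 2 the highest of them, lie within the range of the control fish. The gpx3 mean is lower in Transgenic Mosaic 1 on every diet, with overlapping fish on the deficient and control diets.

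The first comparison asked how the members differ between the populations. No glutathione peroxidase passed an adjusted p of 0.05 in limma when the populations were compared over the 3 diets, against 13.3% of all genes. At an unadjusted p under 0.05, gpx3 was 1 of 4, against 29.0% of all genes. The estimate for gpx3 was lower in Transgenic Mosaic 1 by a log2 difference of -0.44, and that for GPX4 was 0.07.

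gpx3, the extracellular enzyme, had the largest population difference of the 4 when averaged over the diets in all fish. On the control diet alone the gpx1b estimate was larger, at -0.38 against -0.35. In Pargana the gpx3 values were 10.93 and 10.55 on the control diet. They were 10.68, 11.20 and 10.69 on the deficient diet, and 10.91, 11.30 and 11.32 on the supplemented diet. In Transgenic Mosaic 1 they were 9.94, 10.68 and 10.56 on the control diet, 10.66, 9.86 and 10.79 on the deficient diet, and 10.49, 10.56 and 10.83 on the supplemented diet. All 9 Transgenic Mosaic 1 fish lay below the Pargana median of 10.92, and 3 of them lay below every Pargana fish. Conversely, 5 of 8 Pargana fish lay above every Transgenic Mosaic 1 fish. The populations therefore overlapped in part. Averaged over the diets, the difference was -0.44 (SE 0.15, 95% interval -0.77 to -0.11), or -26.4% in linear terms, with an unadjusted p of 0.0123 and an adjusted p of 0.0725 in limma. In a model of population plus diet without their interaction it was -0.45 with a limma adjusted p of 0.0485, which is past the threshold. That model put 2266 of all 15648 genes past it, where the main one put 2089. In bulk tissue such as this, fewer cells of a type and less RNA per cell cannot be told apart.

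Within the diets, the gpx3 difference between the populations was -0.42 (95% interval -0.97 to 0.13) on the deficient diet, -0.35 (-0.96 to 0.27) on the control diet and -0.55 (-1.10 to -0.0039) on the supplemented diet. Only on the supplemented diet did the groups not overlap, as was also the case for 28.2% of all genes. No member passed an adjusted p of 0.05 in limma on the deficient diet (1.44% of all genes did), the control diet (0.952%) or the supplemented diet (3.87%). At an unadjusted p under 0.05 the number of members was 0 on the deficient diet (14.3% of all genes), 0 on the control diet (12.4%) and 1, gpx3, on the supplemented diet (20.0%).

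gpx1b values in Pargana were 6.42 and 5.70 on the control diet, 5.76, 5.94 and 6.12 on the deficient diet, and 6.14, 5.87 and 5.71 on the supplemented diet. In Transgenic Mosaic 1 they were 5.76, 5.58 and 5.69 on the control diet, 5.79, 6.56 and 5.39 on the deficient diet, and 5.39, 5.64 and 5.65 on the supplemented diet. In 6 of 9 Transgenic Mosaic 1 fish gpx1b was below every Pargana fish, while deficient fish 2 of that population had the highest value of all 17. On the supplemented diet the populations did not overlap for gpx1b, as for 28.2% of all genes, with a difference of -0.34 (95% interval -0.88 to 0.19). On the deficient diet the difference was -0.03 (-0.57 to 0.51) and on the control diet -0.38 (-0.98 to 0.22), and there the populations overlapped. Averaged over the diets the difference was -0.25 (SE 0.15, 95% interval -0.57 to 0.07), with a limma adjusted p of 0.295. Without Pargana control fish 1 it was -0.13, and without Pargana control fish 2 it was -0.37. Without the 4 fish set apart by their markers, a choice made after seeing the data, it was -0.46. Pargana control was then fish 1 alone, whose gpx1b value of 6.42 ranked 2 of 17. Each of these omissions leaves Pargana control with 1 fish, and that of the 4 fish leaves Pargana supplemented with 1 as well. A lone fish is then assumed to vary like the other groups. The gpx3 difference without the 4 fish was -0.45. The set of 4 includes Transgenic Mosaic 1 deficient fish 2, the fish with the highest gpx1b value.

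The other copy for the cytosolic enzyme, gpx1a, differed between the populations by -0.17 (SE 0.14, 95% interval -0.47 to 0.13, limma adjusted p = 0.464). Its population difference was 0.07 on the deficient diet, -0.29 on the control diet and -0.28 on the supplemented diet. For GPX4, the phospholipid hydroperoxide reductase, the population difference was 0.07 (SE 0.10, 95% interval -0.15 to 0.30, limma adjusted p = 0.687). The upper end of that interval corresponds to a difference of 22.8%.

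GPX4 values in Pargana were 11.83 and 12.17 on the control diet, 11.96, 11.38 and 12.13 on the deficient diet, and 11.80, 12.09 and 12.19 on the supplemented diet. The Transgenic Mosaic 1 fish had 12.07, 11.87 and 12.03 on the control diet, 11.87, 12.08 and 11.94 on the deficient diet, and 12.06, 12.16 and 12.15 on the supplemented diet. All groups overlapped with all others, and the lowest value belonged to Pargana deficient fish 2. The SD over all fish of a population was 0.11 in Transgenic Mosaic 1 (n = 9) and 0.27 in Pargana (n = 8), which was not tested.

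The diet comparisons asked how the members differ from their control level at lower and at higher selenium, a question that the series title frames as a hormetic response. gpx1a was the member with the largest estimated difference. Its averages on both other diets were lower than on the control diet in both populations, by log2 differences between -0.68 and -0.33, but none passed the adjusted threshold.

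In Pargana, gpx1a was at 11.94 and 11.51 on the control diet, 10.64, 11.62 and 10.88 on the deficient diet, and 11.25, 11.17 and 11.39 on the supplemented diet. Transgenic Mosaic 1 fish had gpx1a at 11.49, 11.24 and 11.57 on the control diet, 11.27, 11.24 and 10.82 on the deficient diet, and 10.72, 10.91 and 11.32 on the supplemented diet. Of the 12 fish on the deficient or supplemented diet, 11 lay below the median of the 5 control fish and 7 lay below every control fish. The exception to the former was Pargana deficient fish 2, at 11.62. The Pargana control and supplemented groups did not overlap, as was the case for 16.9% of all genes, and the other diet groups overlapped within each population.

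Averaged over the populations, gpx1a on the deficient diet differed from control by -0.50 (SE 0.18, 95% interval -0.88 to -0.13), with an unadjusted p of 0.0122 and an adjusted p of 0.666 in limma. On the supplemented diet the difference from control was -0.45 (SE 0.18, 95% interval -0.83 to -0.08, limma adjusted p = 0.852). These estimates share the same 5 control fish, so they are not independent of each other. The supplemented and deficient diets differed by 0.05 (95% interval -0.30 to 0.40). The mean of both outer diets differed from control by -0.48 (SE 0.15, 95% interval -0.81 to -0.15), or -28.3% in linear terms. Its unadjusted p of 0.00786 ranked 185 among all genes, and its adjusted p was 0.624 in limma. Leaving out Pargana control fish 1, which had the highest gpx1a value, gave -0.37, and leaving out control fish 2 of that population gave -0.59.

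Within Pargana, gpx1a differed from control by -0.68 (SE 0.26, 95% interval -1.24 to -0.12, limma adjusted p = 0.610) on the deficient diet and by -0.46 (-1.02 to 0.10) on the supplemented diet. Within Transgenic Mosaic 1 the corresponding differences were -0.33 (95% interval -0.83 to 0.17) and -0.45 (-0.95 to 0.05). The Pargana supplemented difference became -0.24 without Pargana control fish 1, and the Transgenic Mosaic 1 deficient difference became -0.18 without deficient fish 3. The interaction of population and diet had a limma adjusted p of 0.994 for gpx1a. The difference between the populations in the deficient-diet estimate was 0.35, with a 95% interval from -0.40 to 1.11.

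Several marker lists differed in level along with gpx1a between the control and the outer diets, although no marker gene passed an adjusted p of 0.05 in that comparison. For the mean of the outer diets against control, 0 of 4 erythrocyte genes, 0 of 5 endothelial genes and 0 of 9 microglia and macrophage genes had a difference above 0. Their median differences were -0.29, -0.25 and -0.15, where the median of all genes was -0.02. Of the pituitary genes 1 of 6 was above 0, with a median of -0.75. The mean deviation of that list from its average was 3.20 in Pargana control fish 2 and from -0.81 to 0.03 in the other control fish. By diet, the median of this deviation was -0.34 in control, -0.35 in deficient and -0.72 in supplemented fish. Unlike in the lists so far, 9 of 9 muscle genes and 7 of 7 eye and pineal genes were above 0, with medians of 0.69 and 0.50. The medians of neurons, midbrain, astroglia, oligodendrocytes, and meninges and choroid plexus were 0.01, 0.04, 0.04, -0.06 and 0.13. In Transgenic Mosaic 1 on the deficient diet, 6 of 9 microglia and macrophage genes were above 0 (median 0.20) while gpx1a was at -0.33, and in Pargana 0 of 9 were (median -0.44) with gpx1a at -0.68. The erythrocyte score, the mean deviation of the list from its average over all fish, ran from -0.08 to 0.73 in control fish, from -0.36 to 0.18 in deficient fish and from -0.41 to 0.50 in supplemented fish. The endothelial score ran from 0.01 to 0.52, from -0.23 to 0.12 and from -0.54 to 0.17 in the same order. The microglia and macrophage score ran from -0.20 to 0.90, from -0.38 to 0.33 and from -0.29 to 0.25. Pargana control fish 1, the fish with the highest gpx1a value, had the highest score of all fish in each of these lists. Pargana deficient fish 2, whose gpx1a value of 11.62 ranked 2 of 17, was at -0.36, -0.10 and 0.02 in the same order of lists. Transgenic Mosaic 1 control fish 3, which ranked 3 at 11.57, was at 0.11, 0.01 and -0.00. The part of these cells and tissues in the gpx1a difference was not tested.

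**Figure D2:**
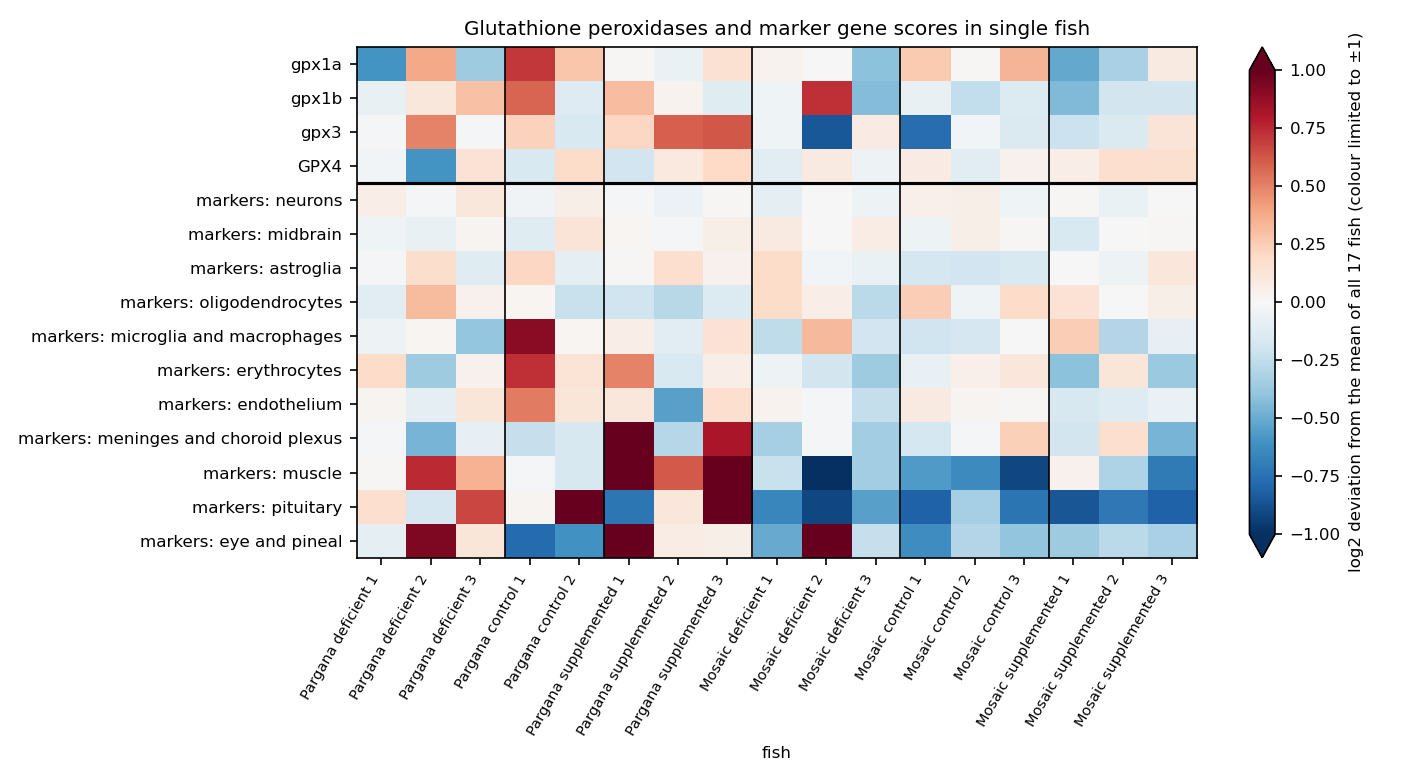
Deviation of each glutathione peroxidase, and of each marker list's score, from its mean over all 17 fish (colour, log2 units, limited to ±1), with fish in columns and groups separated by vertical lines. Pargana control fish 1 is high in gpx1a and in the microglia, erythrocyte and endothelium lists, and the muscle and pituitary lists are lower in most Transgenic Mosaic 1 fish (Mosaic).

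Muscle and pituitary markers differed between the populations, in the direction of the gpx3 estimate. In limma, 6 of 9 muscle genes and 2 of 6 pituitary genes were lower in Transgenic Mosaic 1 at an adjusted p of 0.05. Of all genes, 6.95% were lower by that criterion. The median differences of the 2 lists were -1.27 and -1.16, where the median of all genes was -0.01. Most of these signals were low. Only 1 of 9 muscle and 1 of 6 pituitary genes were at or above the median gene, and 3 and 4 were in the lowest quartile. The muscle score ran from -0.16 to 1.90 in Pargana and from -1.05 to 0.04 in Transgenic Mosaic 1. The pituitary score ran from -0.72 to 3.20 in Pargana and from -0.91 to -0.34 in Transgenic Mosaic 1. Pargana control fish 2 and supplemented fish 3 were at 3.20 and 3.07, and the next highest Pargana fish was at 0.67. The gpx3 value was 10.55 in that control fish, the lowest in Pargana, and 11.32 in that supplemented fish, the highest of all fish. Pargana supplemented fish 1, 2 and 3 had muscle scores of 1.90, 0.61 and 1.28, with gpx3 at 10.91, 11.30 and 11.32. The part of these tissues in the gpx3 difference was not tested.

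The remaining members had smaller diet estimates. gpx3 on the supplemented diet differed from control by 0.33 (SE 0.19, 95% interval -0.08 to 0.75, limma adjusted p = 0.975) when averaged over the populations, and by 0.08 (-0.33 to 0.49) on the deficient diet. gpx1b differed by -0.14 (95% interval -0.54 to 0.27) on the supplemented and by 0.06 (-0.34 to 0.46) on the deficient diet. GPX4 differed by 0.08 (95% interval -0.20 to 0.36) on the supplemented and by -0.10 (-0.38 to 0.18) on the deficient diet. Between the supplemented and deficient diets the differences were 0.26 for gpx3, -0.20 for gpx1b and 0.18 for GPX4, and the 95% interval of each includes 0.

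In limma, 0 of 4 members passed an adjusted p of 0.05 in any diet comparison. Averaged over the populations, 0.0320% of all genes passed for deficient against control, 0.0447% for supplemented against control, 0% for supplemented against deficient and 0.0575% for both outer diets against control. At an unadjusted p under 0.05, gpx1a was the 1 member counted in each of these except supplemented against deficient, where there were 0 members and 673 genes in all. The corresponding shares of all genes were 6.94%, 5.38%, 4.30% and 6.61%. Within Pargana the shares of all genes past the adjusted threshold were 0.0383%, 0.0320% and 0% for deficient against control, supplemented against control and supplemented against deficient, the last with 1018 genes at an unadjusted p under 0.05. Within Transgenic Mosaic 1 they were 0.0256%, 0.0831% and 0.00639%. At an unadjusted p under 0.05 the within-population comparisons held 1 member, gpx1a in Pargana on the deficient diet against control. The shares of all genes by that criterion were, in the same order, 7.05%, 6.01% and 6.51% in Pargana and 4.67%, 5.76% and 3.34% in Transgenic Mosaic 1. For the interaction of population and diet the share was 0.0383% by adjusted and 5.63% by unadjusted p, 0 members passed either, and the members' limma adjusted p-values ran from 0.994 to 0.996.

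**Figure D3:**
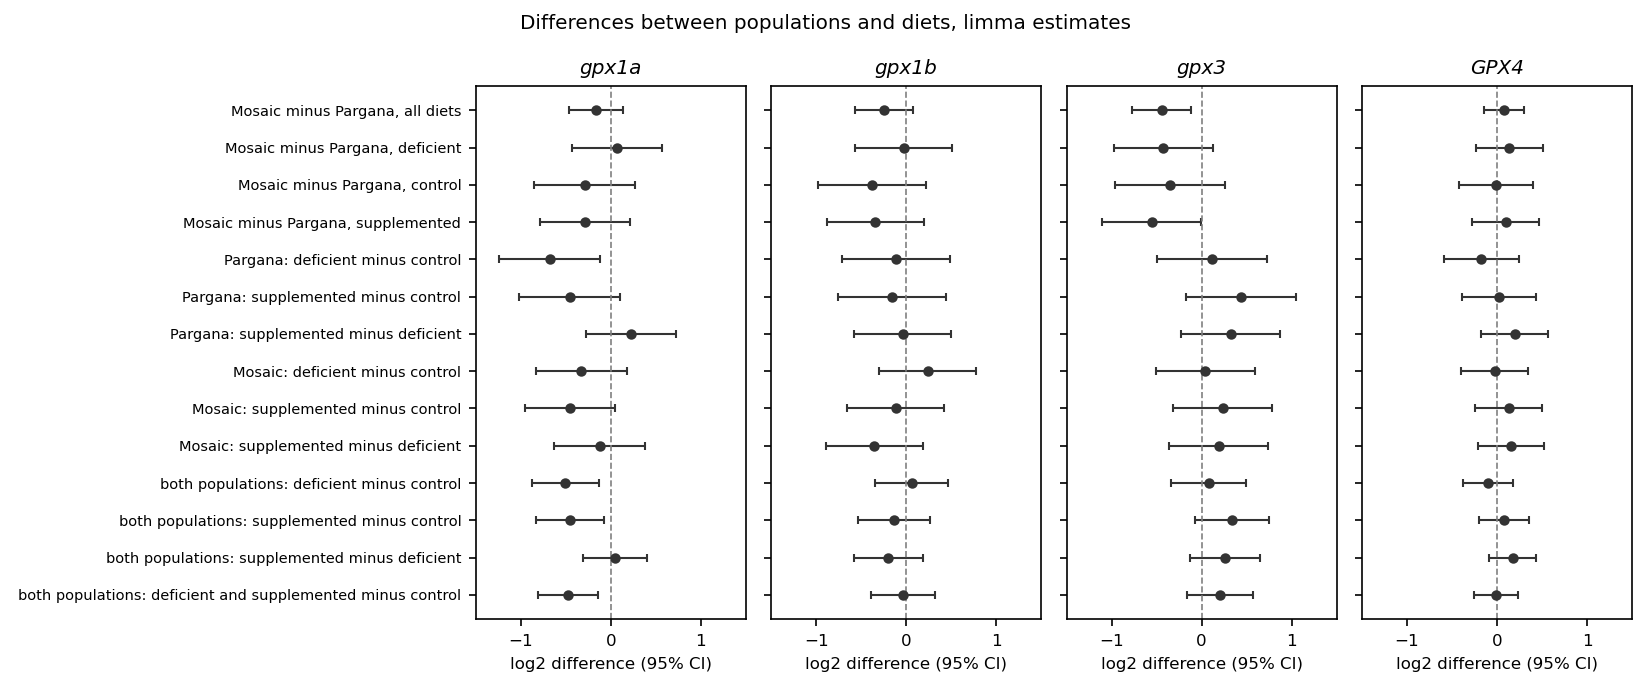
Log2 differences of the 4 glutathione peroxidases (horizontal axes) with 95% intervals in 14 comparisons of populations and diets (rows), estimated by limma in all 17 fish, without adjustment of the intervals for multiple tests. The intervals of gpx1a lie below 0 for the averaged comparisons with control and for deficient against control in Pargana, and those of gpx3 lie below 0 for the population difference over all diets and on the supplemented diet.

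The order of the 6 group means differed between the members. For gpx1a both control groups came first, at 11.73 ± 0.30 (SD, n = 2) in Pargana and 11.44 ± 0.17 (SD, n = 3) in Transgenic Mosaic 1, and the last was Transgenic Mosaic 1 supplemented, at 10.98 ± 0.31 (SD, n = 3). For gpx3 all 3 Pargana groups came before all 3 Transgenic Mosaic 1 groups, from 11.18 ± 0.23 (SD, n = 3) in Pargana supplemented to 10.39 ± 0.39 (SD, n = 3) in Transgenic Mosaic 1 control. In both populations the supplemented group had the highest gpx3 mean and the control group the lowest. For gpx1b the order ran from 6.06 ± 0.50 (SD, n = 2) in Pargana control to 5.56 ± 0.15 (SD, n = 3) in Transgenic Mosaic 1 supplemented. GPX4 ran from 12.12 ± 0.06 (SD, n = 3) in Transgenic Mosaic 1 supplemented to 11.83 ± 0.39 (SD, n = 3) in Pargana deficient. In each of the 4 orders, all neighbouring groups overlapped in their ranges. Of the 15 pairs of groups, 3 did not overlap for gpx1a, 4 for gpx1b, 4 for gpx3 and 0 for GPX4, where a gene had 2 such pairs at the median of all genes and 2.96 on average.

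Because gpx1a and gpx1b encode copies of the cytosolic enzyme, their difference within each fish was compared across diets, centred on its mean over all fish. On the control diet it was 0.12 and 0.40 in Pargana and 0.33, 0.26 and 0.48 in Transgenic Mosaic 1. On the deficient diet it was -0.52, 0.27 and -0.65 in Pargana and 0.08, -0.73 and 0.02 in Transgenic Mosaic 1. On the supplemented diet it was -0.29, -0.10 and 0.28 in Pargana and -0.07, -0.14 and 0.27 in Transgenic Mosaic 1. All 5 control fish were above 0, and the diets overlapped. gpx1a was lower relative to gpx1b by -0.56 on the deficient diet against control (two-sided exact permutation p = 0.045, adjusted over 4 tests 0.09) and by -0.32 on the supplemented diet against control (exact p = 0.045, adjusted 0.09). Neither passed after adjustment, and both use the same control fish. The gpx1b signal was low, with a mean above that of 15.8% of all genes. Whether its probes register changes as fully as those of gpx1a was not tested. The lowest within-fish difference, -0.73, came from Transgenic Mosaic 1 deficient fish 2, which had the highest gpx1b value of all 17 fish. The supplemented diet differed from the deficient diet by 0.25 (exact p = 0.245, adjusted 0.327), and the populations differed by 0.08 (exact p = 0.579, adjusted 0.579).

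**Figure D4:**
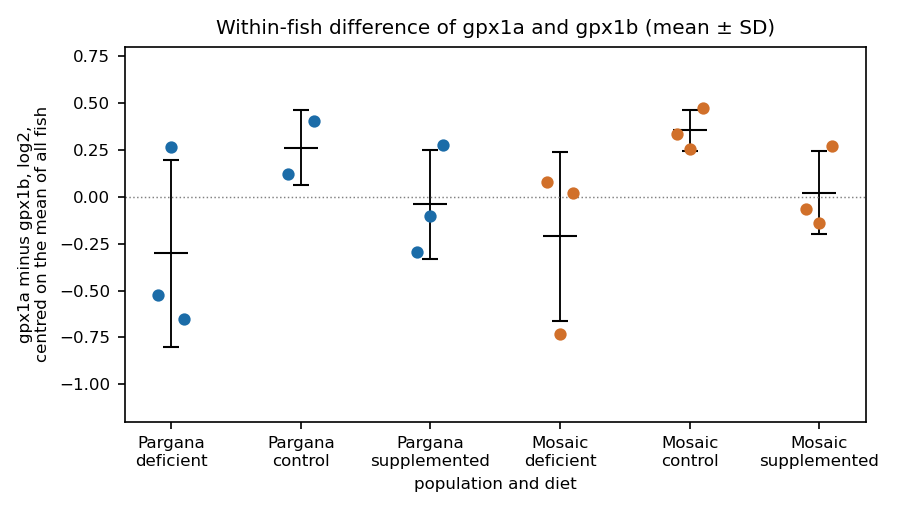
Difference of gpx1a and gpx1b within each fish (vertical axis, log2 units centred on the mean of all fish) by population and diet (horizontal axis), with points for fish and bars for the group mean ± SD (n = 3, or 2 for Pargana control). All 5 control fish lie above 0, and the fish on the other diets lie on both sides of it.

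Across the 17 fish no pair of members was correlated past the threshold. Of the 6 pairs, gpx1a and gpx1b had the largest Pearson r, at 0.40 (permutation p = 0.109, adjusted 0.492), with a Spearman rho of 0.28 (permutation p = 0.280, adjusted 0.565). Without the 2 fish farthest from the median of gpx1a, r was 0.22. Within the populations it was 0.38 in Pargana and 0.40 in Transgenic Mosaic 1. The adjusted permutation p-values of all pairs ran from 0.492 to 0.642 for Pearson's r. For deviations from the group means, r was 0.44 for gpx1a and gpx1b and 0.27 for gpx1a and gpx3. The other pairs were negative, at -0.49 for gpx1a and GPX4, -0.47 for gpx1b and gpx3, -0.44 for gpx3 and GPX4, and -0.06 for gpx1b and GPX4. gpx1b and gpx3 had an r of -0.12 over all fish, -0.06 in Pargana and -0.72 in Transgenic Mosaic 1. In Transgenic Mosaic 1, deficient fish 2 held both the highest gpx1b and the lowest gpx3 value, and without it r was -0.34 over 8 fish.

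Among 6424 genes with a symbol and at least median expression, those most like each member over the 17 fish were ranked by Pearson's r, as a description. gpx1a was most like inka1a (0.71), FGFR1, a fibroblast growth factor receptor (0.69), and krt18b, a keratin (0.69). gpx1b was most like b2m, the light chain of major histocompatibility class I molecules (0.77), sh3bp2 (0.75) and AHCY, which hydrolyses S-adenosylhomocysteine (0.74). gpx3 was most like DLST, a subunit of the 2-oxoglutarate dehydrogenase complex (0.85), chgb, a protein of secretory granules (0.85), and SCOC (0.83). GPX4 was most like APP, the amyloid precursor protein (0.84), syne3, a protein of the nuclear envelope (0.83), and hnrnph1, an RNA-binding splicing factor (0.83). All values come from the same arrays and share the population and diet groups.

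Of the other glutathione peroxidases, 2 were matched by symbol, and limma put neither past an adjusted p of 0.05 in the averaged comparisons. GPX7 encodes an enzyme of the endoplasmic reticulum that in mammals uses cysteine in place of selenocysteine. Its values were 10.17 and 9.42 in the Pargana control fish, 7.52, 7.59 and 8.01 in the Pargana deficient fish, and 7.84, 10.43 and 8.04 in the Pargana supplemented fish. The Transgenic Mosaic 1 values were 7.84, 7.66 and 8.06 on the control diet, 7.65, 8.05 and 8.44 on the deficient diet, and 8.25, 8.20 and 7.86 on the supplemented diet. Both Pargana control fish and Pargana supplemented fish 2 lay above every other fish. The population difference of GPX7 was -0.76 (SE 0.30, 95% interval -1.40 to -0.11, limma adjusted p = 0.111). Without Pargana supplemented fish 2 it was -0.48 with an adjusted p of 0.0497 in limma, which is past the threshold. Without the 4 fish set apart by their markers it was -1.43 with a limma adjusted p of 0.0015. Pargana control and Pargana supplemented are then represented by 1 fish each, at 10.17 and 10.43, both among the 3 highest, so that value rests on those fish. On the deficient diet GPX7 differed from control by -0.95 (SE 0.37, 95% interval -1.75 to -0.14, limma adjusted p = 0.687), and without those 4 fish by -1.14 with a limma adjusted p of 0.0342, which rests on lone fish in the same way. On the supplemented diet it differed from control by -0.39 (95% interval -1.19 to 0.42). gpx9 had values between 4.12 and 4.73 and a population difference of 0.14 (SE 0.07, limma adjusted p = 0.228).

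The genes around the enzymes, which make and recycle glutathione, remove other peroxides, supply selenium or take part in lipid peroxidation, were counted in 6 lists that also hold GPX7 and gpx9. Of their 72 matched genes, 6 were higher and 6 lower in Transgenic Mosaic 1 at an adjusted p of 0.05 in limma, or 16.7% against 13.3% of all genes. Their median difference was -0.01, as was that of all genes. In each of the averaged diet comparisons 0 of the 72 passed in limma, and 9, 1, 3 and 5 had an unadjusted p under 0.05 for deficient against control, supplemented against control, supplemented against deficient and both outer diets against control. These are 12.5%, 1.39%, 4.17% and 6.94% of the list genes, against 6.94%, 5.38%, 4.30% and 6.61% of all genes.

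Beside the list counts that follow, 6.40% of all genes were higher in Transgenic Mosaic 1 and 6.95% lower by the same criterion. In glutathione synthesis and cysteine supply, 2 of 17 genes were higher in Transgenic Mosaic 1 and 0 were lower, with a list median of -0.05. They were ggt1a and LAP3. ggt1a, a gamma-glutamyl transferase that breaks down extracellular glutathione, differed by 0.50 (SE 0.10, limma adjusted p = 0.00446). LAP3, a leucine aminopeptidase, differed by 0.26 (SE 0.08, limma adjusted p = 0.0456). In glutathione recycling and NADPH supply, 1 of 15 was higher and 1 lower, with a median of 0.05. Both are malic enzymes, which form NADPH or NADH from malate: ME1, the cytosolic one in mammals, was lower by a log2 difference of -1.72 (SE 0.36, limma adjusted p = 0.00695) and ME3, the mitochondrial one, higher by 0.41 (SE 0.11). For other peroxide and superoxide removal, 1 of 12 was higher and 0 were lower, with a median of -0.07. The higher gene was TXN2, the mitochondrial thioredoxin (0.32, SE 0.10, limma adjusted p = 0.0497).

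The shares of all genes, 6.40% higher and 6.95% lower, stand beside the counts of the last lists as well. In selenium supply and selenocysteine insertion, 2 of 11 genes were lower in Transgenic Mosaic 1 and 0 were higher, with a median of 0.00. SEPSECS, which makes selenocysteine on its transfer RNA, differed by -0.48 (SE 0.10, limma adjusted p = 0.00839), and SEPHS2, which makes the selenium donor for that step, by -0.29 (SE 0.07). In lipid peroxidation and iron handling, 2 of 15 were higher and 3 lower, with a median of -0.05. The higher ones were LPCAT3, which builds polyunsaturated acyl chains into phospholipids (0.51, SE 0.09), and AIFM2, a reductase of coenzyme Q (0.27, SE 0.08). The lower ones were PTGS2, a prostaglandin synthase (-1.55, SE 0.29), FTH1, a ferritin heavy chain (-0.66, SE 0.10, limma adjusted p = 0.000896), and alox12, a lipoxygenase (-0.62, SE 0.16). Another ferritin heavy chain gene of the list, fth1a, did not pass. Of the 17 analyses that each left out 1 fish, LAP3 passed in 4, TXN2 in 2, AIFM2 in 4 and ME3 in 9. They were not the only ones of the 12 genes to fall short, as 51 values did so over these analyses. With all fish kept, TXN2 fell short after a further quantile normalization (limma adjusted p = 0.0537). LAP3 fell short with a trended variance model (limma adjusted p = 0.0830) and in the model without interaction (0.100). Without the 4 fish set apart by their markers, ME1, LPCAT3, FTH1 and alox12 passed and the other 8 of the 12 did not. The estimates of these 8 were then 0.47 for ggt1a, 0.26 for LAP3, 0.41 for ME3, 0.24 for TXN2, -0.51 for SEPSECS, -0.26 for SEPHS2, 0.27 for AIFM2 and -1.32 for PTGS2.

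Among diet differences in these lists, HMOX1, the inducible heme oxygenase, had the largest estimate after GPX7 on the deficient diet, at -0.85 against control (SE 0.23, 95% interval -1.35 to -0.35, limma adjusted p = 0.630). ALOX5, a lipoxygenase of leukocytes, differed by -0.58 (SE 0.17, 95% interval -0.95 to -0.22, limma adjusted p = 0.630) in the same comparison. Neither passed the threshold. As given above, 0 of 9 microglia and macrophage marker genes had a difference above 0 on the outer diets, and their part in these values was not tested.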

How the data were processed

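Per the labels, total RNA of single midbrains was made into cDNA with random primers, labelled with Cy3 and hybridised to NimbleGen arrays. The authors deposited log2 values, 1 for each Ensembl gene and fish, made with RMA and the Zv9 build, per the submitters' processing notes; no version is given in the sources used here. They were used as deposited. Of 15649 features, 1 naming no gene was left out, and no value was missing. The number of arrays limits the precision, and no slide or scan date was at hand to test as a batch. Every array is a separate fish, so p-values measure the spread between fish.

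Differences were estimated with limma 3.58.1 (R 4.3.3), fitting the means of 6 groups to all 17 arrays (11 residual and 2.84 prior degrees of freedom), two-sided, adjusted by Benjamini and Hochberg over all 15648 genes, in 15 comparisons. gpx1a minus gpx1b was tested by exact permutation of fish within diets or populations, and correlations with 100000 permutations. The 4 members were always named. From each gene list the genes past the threshold, and otherwise up to 3 of the largest difference, were eligible to be named, and GPX7 was followed fish by fish after its values were seen. For likeness the 3 genes of highest r were named. The members and lists were chosen with earlier results of these data known. Symbols, RefSeq synonyms or base symbols matched 141 of the 214 list entries to measured genes. A base symbol is the entry without its final a or b, and FTH1 was matched in this way from fth1b. Marker lists were for neurons, midbrain, astroglia, oligodendrocytes, microglia and macrophages, erythrocytes, endothelium, meninges and choroid plexus, muscle, pituitary, and eye and pineal. Population medians of the lists other than muscle and pituitary were -0.02 for neurons, 0.00 for midbrain, -0.07 for astroglia, 0.17 for oligodendrocytes, -0.14 for microglia and macrophages, -0.25 for erythrocytes, -0.18 for endothelium, -0.21 for meninges and choroid plexus, and 0.07 for eye and pineal. In limma 1 midbrain, 2 oligodendrocyte and 1 eye and pineal gene were higher in Transgenic Mosaic 1, and 1 microglia and 1 eye and pineal gene lower. The shares of all genes were 6.40% higher and 6.95% lower.

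Alternatives were other normalizations, filters, variance models, array weights, other models and the omission of fish. In simulated data over 15648 genes, 59.7%, 92.5% and 98.5% of genes changed by 0.5, 1 and 2 were recovered for the population difference. For supplemented against control the shares were 34.3%, 73.1% and 98.5%. In each comparison 67, 67 and 66 genes were changed by these amounts, with noise drawn independently for each gene. Unchanged genes called were 13 and 5. In the data 13.3% of genes passed for the population difference, so the shares do not give the recovery in this series. Permutations were run in scipy 1.17.1 with numpy 2.4.6, and figures drawn with matplotlib 3.10.9, under python 3.11.15 (pandas 2.3.3).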

Additional observations from a re-analysis of the deposited data

Results flagged for a closer look

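In 8 sets of fish, each of the 4 members in each of the 2 populations, 1 value stood apart from its neighbours by more than a gap expected in about 1 of 20 sets. This was gpx1b in Transgenic Mosaic 1 deficient fish 2, at 6.56 log2 units, where the gap to the next fish was 0.659 of the range of the 9 fish. The same fish had the lowest gpx3 value, 9.86, and the highest eye and pineal marker score among Transgenic Mosaic 1 fish, 1.41. Its part in the gpx1b value was not tested.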

How the results depend on the processing

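Of 2491 values recomputed under other settings, 2360 kept their side of the threshold and, where they had one, their direction. Another 62 changed sign, 62 of list genes fell short of the threshold, 5 passed it and 2 counts of members called moved from 0 to 1. No test of a member passed in the main analysis, so for the members keeping their side of the threshold says little. One of these counts came from a model without interaction, where gpx3 passed for the population difference (-0.45), as did 2266 of all 15648 genes. The other came from leaving out the 4 fish set apart by their markers, where the gpx1b population difference was -0.46. That choice was made after seeing the data and leaves Pargana control and Pargana supplemented with 1 fish each. No paired analysis was made, because every array is a separate fish and the labels name no pairs. The fish numbers follow the order of the samples within each group, as the labels give no replicate numbers. gpx1b had no value with the lowest quartile of genes left out. The cause of the changes below was not tested, and all concern differences that did not pass the threshold.

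With the arrays normalized again by quantiles, GPX4 was at 0.0189 for deficient against control in Transgenic Mosaic 1 and at 0.0224 for both outer diets against control. With the arrays centred on their medians the same values were 0.00545 and 0.0188. With array weights, GPX4 was at 0.017 for the population difference on the control diet and 0.00653 for the outer diets, and gpx1b at -0.0286 for deficient against control. Without the 4 fish, GPX4 was at 0.157 for the population difference on the control diet and 0.0738 for the outer diets, gpx1b at -0.28 for deficient against control and -0.0869 for the same in Transgenic Mosaic 1, gpx3 at -0.076 for deficient against control in Pargana and -0.0958 for supplemented against deficient in Transgenic Mosaic 1, and GPX7 at 0.255 for supplemented against control.

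The following ranges, all spanning 0, came from leaving out 1 fish at a time. For the population difference they were -0.14 to 0.35 for gpx1a, -0.35 to 0.23 for gpx1b and -0.084 to 0.29 for GPX4 on the deficient diet, and for GPX4 -0.18 to 0.16 on the control and -0.017 to 0.18 on the supplemented diet. In Pargana, deficient against control, they were -0.47 to 0.24 for gpx1b, -0.076 to 0.31 for gpx3 and -0.34 to 0.048 for GPX4. For supplemented against control in Pargana they were -0.51 to 0.20 for gpx1b and -0.14 to 0.19 for GPX4, and for supplemented against deficient -0.15 to 0.060 for gpx1b and -0.023 to 0.35 for GPX4. In Transgenic Mosaic 1, deficient against control, they were -0.087 to 0.50 for gpx1b, -0.18 to 0.33 for gpx3 and -0.084 to 0.021 for GPX4. For supplemented against deficient in Transgenic Mosaic 1 they were -0.29 to 0.0052 for gpx1a and -0.096 to 0.37 for gpx3. Averaged over the populations, deficient against control ranged from -0.12 to 0.24 for gpx1b, -0.035 to 0.22 for gpx3 and -0.18 to 0.011 for GPX4. Supplemented against control ranged from -0.32 to 0.041 for gpx1b and -0.0062 to 0.16 for GPX4, supplemented against deficient from -0.052 to 0.19 for gpx1a, and the outer diets against control from -0.22 to 0.14 for gpx1b and -0.095 to 0.073 for GPX4.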
